A study of Homo sapiens with 2 samples.

Results

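The long arm of chromosome 1, 1q, carried 594 of the 12688 regions that were listed as bound by oestrogen receptor α (ERα) in T47D cells, an established ERα-positive human breast cancer line. Members were all listed peaks on chromosome 1 that start beyond position 142500000 of the hg19 build, a stretch of 106.75 Mb up to the end of the chromosome. They are set against the 575 peaks of the short arm, 1p, that end before position 121500000. No listed peak of chromosome 1 fell outside these 2 sets. Membership was set by position alone and used no score, width or spacing. The arm itself was chosen with earlier results of these data known, so independence of that choice is not claimed.

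The study made 1 chromatin immunoprecipitation library with the H-20 antibody against ERα and 1 input library of sonicated DNA with no antibody step. Both came from T47D cells that spent 48 h without steroids and then received 10 nM 17β-estradiol for 45 min. The deposited list was called from the ERα library with the input as its background. No cells without estradiol and no second ERα library were analysed here, so nothing below measures a response to the hormone, and no value has a replicate error. The read depth is unknown from the list, intervals cover counting error only, and no p-value is given.

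ERα is a nuclear receptor that estradiol turns into an active transcription factor. The liganded dimer binds oestrogen response elements in DNA, often together with other factors, and most of its sites in breast cells lie away from promoters, in enhancers that tend to sit in groups. Chromosome 1 is the longest human chromosome, and extra copies of its long arm are among the commonest chromosomal changes in breast carcinoma. The arm begins beside a large block of heterochromatin and then alternates between Giemsa-negative bands, which tend to be gene-rich and early-replicating, and Giemsa-positive bands, which tend to be gene-poor and late-replicating. No copy-number measurement, genome sequence or gene annotation of the hg19 build was used here. Peaks are therefore placed in bands and not assigned to genes, and the few genes named with a band are textbook landmarks of it, picked with the peak positions known.

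ERα peaks were denser on 1q than on 1p, and by score class the difference was shown only among the weakest peaks. The long arm held 5.56 peaks per Mb (exact Poisson 95% interval 5.13 to 6.03) and the short arm 4.73 per Mb (4.35 to 5.14), a ratio of 1.18 (exact conditional 95% interval 1.05 to 1.32). Chromosomes 2 to 22 and X together held 4.12 per Mb. That value is over their whole lengths, centromeric stretches included, which the lengths of 1q and 1p leave out, so it is not a like comparison. Peaks covered 0.342% of the 1q stretch and 0.244% of the 1p stretch. The ratio was 1.26 (1.10 to 1.45) once peaks with edges within 10 kb were merged, which left 460 regions on 1q and 414 on 1p. Stretches of over 2 Mb without a peak numbered 0 on 1q and 6 on 1p, where they took up 21.7 Mb. With these left out of the lengths the ratio was 0.966 (0.860 to 1.09), a setting that by construction shortens 1p alone and can only lower the ratio.

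The score that the authors' peak caller gave each peak has no stated scale. It is used here only to order peaks within the list and to cut the list at set scores. Weak, strong and dominant refer to low and high deposited scores and not to measured binding. The list was divided at its quartiles into 4 score classes. In the lowest class, with scores up to 70.52, 1q held 182 peaks and 1p 123, a density ratio of 1.68 (1.33 to 2.13). In the next class the ratio was 1.18 (0.934 to 1.48), and in the third it was 0.803 (0.627 to 1.03), with 115 peaks on 1q and 163 on 1p. In the highest class, with scores of 347.23 or more, 1q held 142 peaks and 1p 139, and the ratio was 1.16 (0.914 to 1.48). The interval excluded 1 only in the lowest class of the 4, and the ratio did not fall steadily with score. Restricted to peaks at or above the median score of the list, 128.27, the ratio was 0.969 (0.817 to 1.15). In finer steps it was 1.63 (1.19 to 2.25) for scores of 50 to 60 and 1.496 (1.13 to 1.99) for 60 to 80, and every higher step had an interval that included 1.

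The 1q peaks ranked low in the list. Their median score was 107.46 (exact 95% interval 99.19 to 116.97), against 137.76 (122.93 to 152.47) on 1p and 129.08 on chromosomes 2 to 22 and X. The share at or above the list's median was 43.3% on 1q (257 of 594, Wilson 95% interval 39.3 to 47.3%) and 52.5% on 1p (302 of 575, 48.4 to 56.6%), a difference of -9.26 percentage points (-14.9 to -3.53). Against chromosomes 2 to 22 and X the difference was -6.96 points (-10.99 to -2.84). Among the 40 chromosome arms with 50 or more peaks outside centromeric, variable and stalk bands, this share was the lowest on 1q, with 10q next at 43.9%. With 1 peak kept per 10 kb region, the highest-scoring, the share was 45.2% on 1q and 55.3% on 1p.

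Along 1q, peaks were spread more evenly than along 1p. Of the 106 whole 1 Mb windows of 1q, 8 held no peak (7.55%, Wilson 95% interval 3.87 to 14.2%), against 24 of the 121 windows of 1p (19.8%, 13.7 to 27.8%), a difference of -12.3 points (-21.1 to -3.25). The median window held 4.5 peaks on 1q, 4 on 1p and 2 on chromosomes 2 to 22 and X, the last over whole chromosomes with their centromeric stretches. Windows with 10 or more peaks made up 22 of the 106 on 1q (20.8%, 14.1 to 29.4%) and 20 of the 121 on 1p (16.5%, 10.96 to 24.2%). Over chromosomes 1 to 22 and X the share of such windows was 13.2%, within the interval of 1p and just below that of 1q, which starts at 14.1%. These chromosomes were counted over their whole lengths, with centromeric stretches that the windows of the 2 arms leave out. Empty windows in such stretches lower the 13.2%, so it does not set 1q apart. With the windows shifted by 500 kb the 1q share was 14.2% (8.77 to 22.04%), an interval that includes 13.2%. The 13.2% itself is from unshifted windows. An excess of dense windows on 1q over this share thus depended on where the 1q windows began, and was not shown over like stretches. The 2 arms differed by 4.23 points with an interval from -5.88 to 14.5, so a difference in dense windows was not shown. The tallest window of 1q held 19 peaks, whereas that of 1p held 29 and that of the other chromosomes 60. The variance of the counts was 3.56 times their mean on 1q and 5.49 times on 1p. It was 6.44 times on chromosomes 2 to 22 and X, again over whole chromosomes. If regions merged within 10 kb are counted in place of peaks, 7.55% of the 1q windows reach 10.

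**Figure D1:**
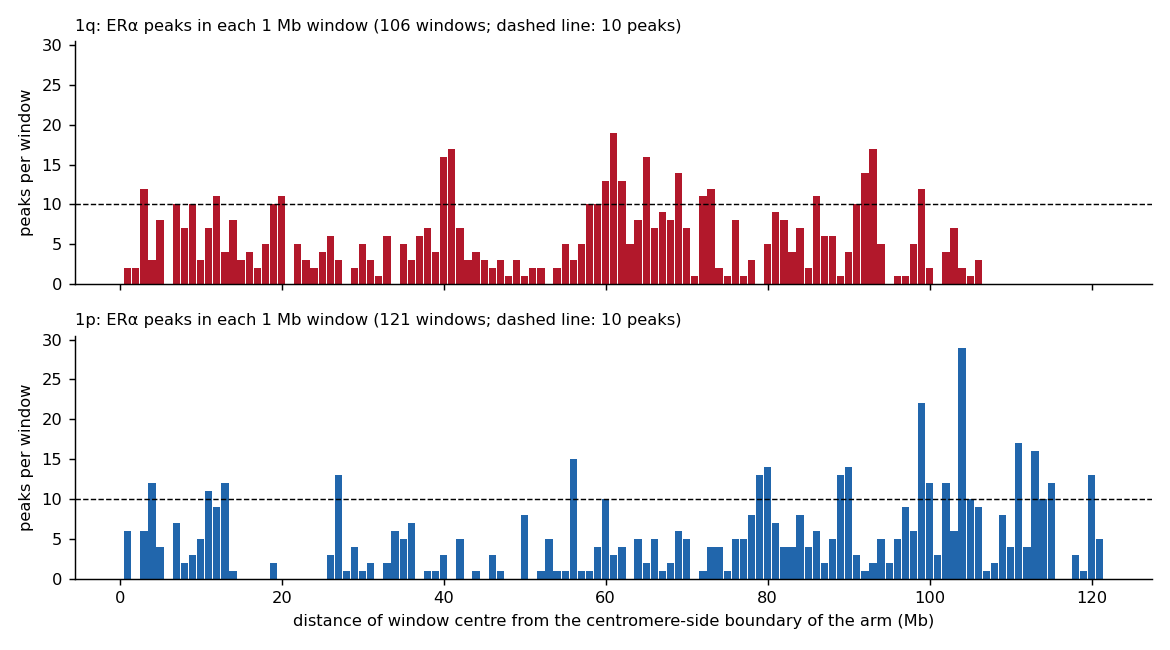
Number of ERα peaks in each whole 1 Mb window (vertical axis) against the distance of the window from the centromere-side boundary of the arm in Mb (horizontal axis), for 1q above and 1p below. The tallest bar has 19 peaks on 1q and 29 on 1p, and the long run of empty windows within 1p has no counterpart on 1q.

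The 22 dense windows of 1q held 279 peaks, 47.2% of those in whole windows, and fell into 13 groups of adjoining windows. The longest group spanned 5 windows, chr1:200000001-205000000, with 65 peaks, of which 2 were strong (score 3100 or more, described below). It lies within band q32.1, which also holds the genes MDM4, BTG2 and ELF3. The single densest window, chr1:203000001-204000000, held 19 peaks in 14 separate 10 kb regions, with a median score of 114.74 and a top score of 3100. Its neighbours on either side held 13 peaks each. Over the whole group the 65 peaks formed 46 regions, and 4 of the 9 clusters of 4 peaks on the arm lay within it.

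The next-densest windows were grouped in q25.3 and at the border of q42.2 and q42.3. In q25.3, chr1:182000001-184000000 held 33 peaks, 16 and 17 per window, in 23 regions with a median score of 135.88, and none of them was strong. Further out on the arm, chr1:233000001-236000000 held 41 peaks in 26 regions, with 10, 14 and 17 in its 3 windows. The last of these, chr1:235000001-236000000, had a median score of only 80.98, yet it held 2 strong peaks. A high count went with mostly weak peaks there, and with stronger ones in chr1:207000001-208000000, where 16 peaks in 8 regions had a median score of 328.40. The window chr1:211000001-212000000 held 14 peaks in 12 regions, and chr1:145000001-146000000, near the heterochromatic block in q21.1, held 12 in 11 regions with a median score of 91.35.

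Peaks in the dense windows had near neighbours more often than those elsewhere on 1q. Of the 279, 47.7% (Wilson 95% interval 41.9 to 53.5%) reached the list's median score and 44.8% (39.1 to 50.7%) had another peak centre within 10 kb. Of the other 315, 39.4% (34.1 to 44.9%) and 31.11% (26.3 to 36.4%) did. The intervals of the scores overlapped, while those of the neighbours did not. Being in a crowded window makes a near neighbour likelier by itself. Of the 9 strong peaks, 8 lay in dense windows, where 47.2% of all 1q peaks in whole windows lay. Strong peaks made up 2.87% (1.46 to 5.56%) of the peaks there and 0.317% (0.0561 to 1.78%) elsewhere, with intervals that overlapped.

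The emptiest parts of 1q were short. The longest stretch between neighbouring peaks, chr1:242374917-244312181, measured 1.94 Mb and spans the border of q43 and q44. The next were chr1:238184755-239990436 in q43 (1.81 Mb), chr1:169499097-171254339 in q24.2 and q24.3 (1.76 Mb), chr1:194750385-196491619 in q31.3 (1.74 Mb) and chr1:162817079-164548559 in q23.3 (1.73 Mb). On 1p the longest was 6.59 Mb, in p21.3 and p21.2. Stretches of over 1 Mb took up 20.3 Mb of 1q and 46.7 Mb of 1p. Parts of the arm that cannot be mapped were not masked, and a gap in the list says nothing of binding there.

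By cytogenetic band, with the 1 peak of the heterochromatic band q12 set aside, density on 1q ran from 1.67 to 18.4 peaks per Mb over 27 bands, with a median of 4.65. The densest was the Giemsa-negative band q42.3, with 35 peaks in 1.9 Mb (18.4 per Mb, exact Poisson 95% interval 12.8 to 25.6), followed by q32.1 with 93 peaks in 8.5 Mb (10.9, 8.83 to 13.4). Then came q32.2 with 9.30 (6.65 to 12.7), q25.3 with 8.73 (6.43 to 11.6) and q21.3 with 8.09 (5.72 to 11.1) per Mb. Band q21.3 is the site of the S100 and epidermal differentiation gene clusters. The interval of q42.3 overlapped that of q32.1 and lay above that of q32.2, while the intervals of the other 4 overlapped one another, so that their order is within counting error. Bands q32.1 and q32.2 together carried 22.4% of the 1q peaks on 11.99% of its length. The sparsest bands were q31.2 with 5 peaks (1.67 per Mb, 0.541 to 3.89), q24.1 with 4 (2.35, 0.641 to 6.02), q31.1 with 2.6, q31.3 with 2.65 and q43 with 3.10 per Mb. The whole of q31 held 31 peaks in 12.9 Mb, or 2.40 per Mb (1.63 to 3.41).

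Giemsa-negative bands of 1q were denser in peaks than Giemsa-positive ones, with 363 peaks in 55.2 Mb (6.58 per Mb, 5.92 to 7.30) and 230 in 51.5 Mb (4.47, 3.91 to 5.08), a ratio of 1.47 (1.25 to 1.75). On 1p the same ratio was 1.84 (1.56 to 2.18). In Giemsa-negative bands the densities were 6.58 per Mb on 1q and 6.45 on 1p, and with a ratio of 1.02 (0.876 to 1.19) a difference was not shown. In the most darkly stained class they stood apart: 1q had 72 peaks in 19.5 Mb (3.69 per Mb, 2.89 to 4.65) and 1p had 24 in 20.2 Mb (1.19, 0.761 to 1.77), a ratio of 3.11 (1.93 to 5.16). In the class below it the ratio was 2.21 (1.19 to 4.23). The dark bands of 1q were not uniform: q41 held 46 peaks (4.79 per Mb, 3.51 to 6.39), and q31.1 and q31.3 held 13 each (2.6 and 2.65 per Mb).

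**Figure D2:**
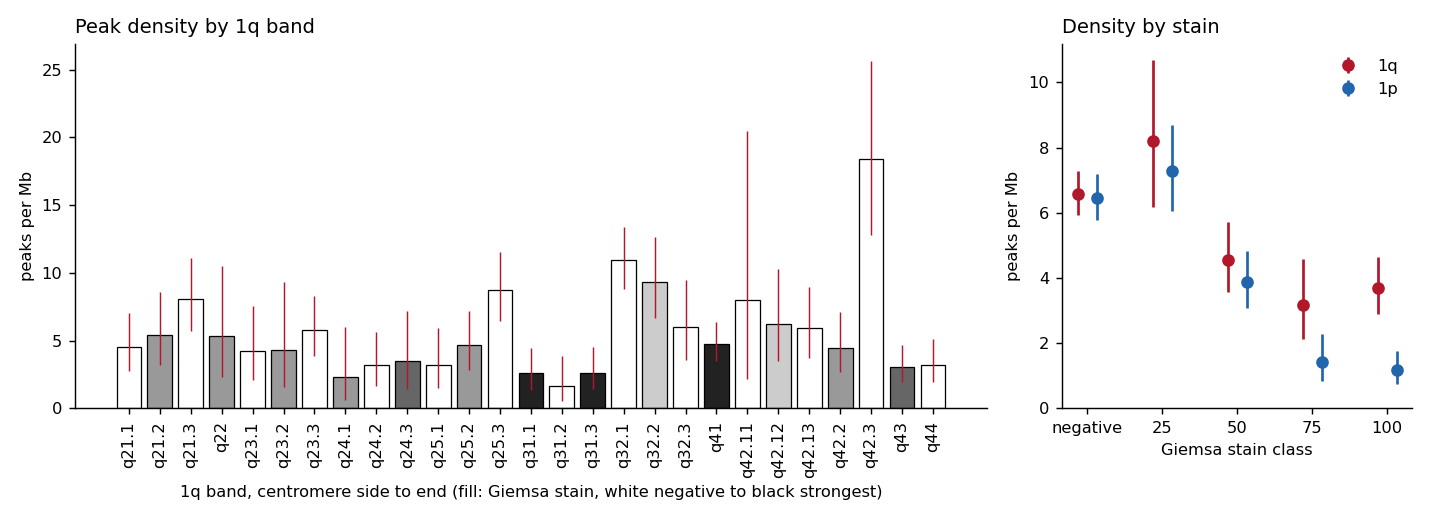
Left, ERα peaks per Mb (bars, with exact Poisson 95% intervals) in the 27 bands of 1q from the centromere side to the chromosome end, filled by Giemsa stain. Right, peaks per Mb by stain class on 1q and 1p: the arms lie together in negative bands (6.58 and 6.45) and apart in the darkest (3.69 and 1.19).

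A difference in the share of the strongest peaks between 1q and 1p was not shown. More peaks carry the score 3100 than any other, 235 in the list, although the highest score is 3230.05. The 269 peaks at or above 3100 are called strong. They made up 2.12% of the whole list. On 1q they were 9 of 594 (1.52%, Wilson 95% interval 0.799 to 2.85%) and on 1p 17 of 575 (2.96%, 1.85 to 4.68%), a difference of -1.44 points (-3.31 to 0.293). The share on 1q lay near that of the list, and the interval of the difference between the arms included 0. The weakest strong peak had exactly 3100, and the next 1q peak below it scored 3083.64.

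The 9 strong peaks lay in the distal part of the arm, from q32.1 on. The first began at 199985747, and the 267 peaks proximal to it included none, which allows a share of up to 1.12%, against 2.75% (9 of 327) from there on. That boundary was set by the strong peaks themselves, so the contrast is a description. Peaks at or above the list's median score were about as common on both sides, at 45.0% (39.7 to 50.4%) from the first strong peak on and 41.2% (35.5 to 47.2%) proximal to it.

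The highest score on 1q belonged to chr1:207076704-207077645 in q32.1, with 3201.35 and a width of 942 bp. Second was chr1:215646876-215647842 in q41, with 3150.02 and 967 bp. Another strong peak of q41, chr1:215598306-215599098, lay less than 50 kb before it. These 2 form the only strong pair of q41, and each had a weaker neighbour, at 2.23 kb from the second-ranked and at 25.4 kb from the other.

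The remaining strong peaks all scored exactly 3100, and their rank among themselves is by width. What this repeated value stands for is not stated. The place of 3201.35 and 3150.02 above it is therefore an order of deposited scores, and not a measure of stronger binding. The widest, chr1:235097527-235100491 in q42.3, measured 2965 bp, and chr1:235011063-235012735 in the same band measured 1673 bp. In q32, chr1:211286614-211288208 measured 1595 bp, chr1:203057902-203059407 measured 1506 bp, chr1:202100966-202102260 measured 1295 bp and chr1:199985747-199986595 measured 849 bp. Of the 9, 5 had another peak centre within 10 kb. Proximal to these, the highest score was the 3083.64 of chr1:155160770-155162077, 1308 bp wide, in q22, the band of the mucin gene MUC1. Its nearest neighbour was 53.3 kb away.

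ERα peaks on 1q were wider than those on 1p although their scores were lower. The median width was 534 bp on 1q (quartiles 450 and 689 bp, exact 95% interval of the median 516 to 551), 461 bp on 1p (385 and 592 bp, 447 to 478) and 505 bp on chromosomes 2 to 22 and X. Across the list, peaks with higher scores are wider, so the arms were compared at like score, in 10 score classes of equal size over the whole list. The median was wider on 1q than on 1p in 10 of the 10 classes, by 15 to 114.5 bp. In the fifth class, with scores of 97.47 to 128.24, it was 511 bp (490 to 537) on 1q, 419 bp (402 to 448) on 1p and 474 bp on chromosomes 2 to 22 and X. In the ninth class the medians were 647, 632 and 640 bp in the same order, and the intervals of the arms overlapped. In the highest class they were 850 bp (768 to 967) on 1q and 753 bp (733 to 853) on 1p, with overlapping intervals again. The size of the gap in bp thus varied between classes and was not shown among the highest scores. In the highest of the 4 score classes used above, the medians were 709 bp (656 to 755) on 1q and 707 bp (646 to 746) on 1p.

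**Figure D3:**
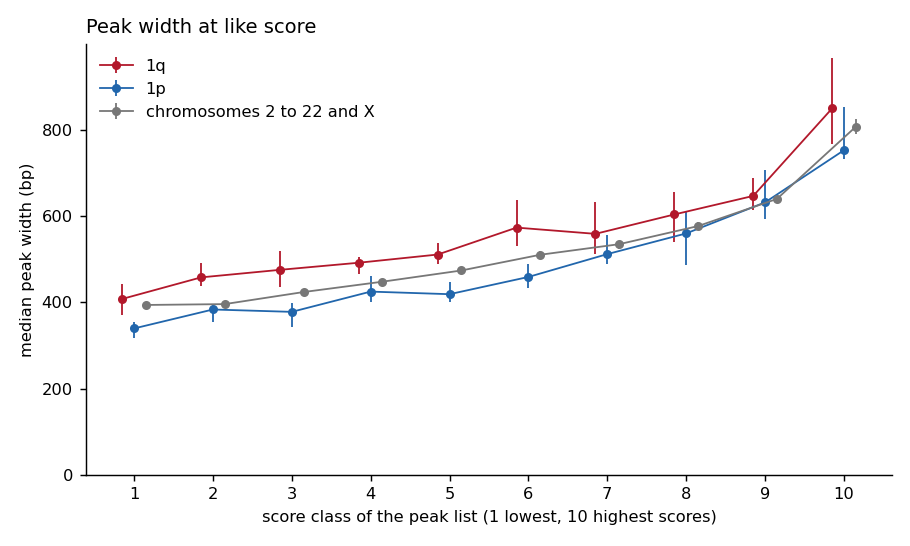
Median peak width in bp (vertical axis, with exact 95% intervals) in each of 10 score classes of the whole list (horizontal axis) for 1q, 1p and chromosomes 2 to 22 and X. The 1q points lie above the 1p points in all 10 classes, with 511 against 419 bp in class 5.

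A peak was counted as wide for its score if it exceeded the median width of its score class in the whole list, which by construction puts the list at 49.8%. On 1q 63.6% of peaks were wide for their score (378 of 594, Wilson 95% interval 59.7 to 67.4%), on 1p 34.1% (196 of 575, 30.3 to 38.1%), a difference of 29.5 points (24.0 to 34.9). Against chromosomes 2 to 22 and X, at 50.02%, 1q was higher by 13.6 points (9.57 to 17.5). The share was higher on 1q than on 1p in 10 of 10 classes, but the arms lay closer at high scores. In classes 1 to 6 it ran from 52.2 to 73.2% on 1q and from 21.8 to 37.3% on 1p. In classes 7 to 10 it ran from 52.6 to 58.9% on 1q and from 39.3 to 46.3% on 1p. Among the 371 peaks of 1q with no other centre within 10 kb it was 59.3% (54.2 to 64.2%), against 31.0% on 1p, so it was not limited to crowded peaks. In dense windows it was 69.9% (64.3 to 74.98%) and elsewhere on 1q 58.1% (52.6 to 63.4%). Density moved with width here, and its part in the widths was not tested.

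These widths extended over most of each arm. In segments of 10 Mb, 9 of the 11 of 1q had more than 50% of peaks wide for their score, and 1 of the 13 of 1p did, the short one at the centromere, with 8 peaks. The first segment of 1q, beside the heterochromatic block, had the highest share, 84.5% (49 of 58, 73.1 to 91.6%). The outermost, with 18 peaks, had the lowest, 22.2% (4 of 18, 9.001 to 45.2%). By band, the share was 80.3% over q21.1 to q21.3 (61 of 76) and 35.5% over q31.1 to q31.3 (11 of 31). In the terminal bands q43 and q44 it was 25% (10 of 40, 14.2 to 40.2%), against 66.4% (367 of 553, 62.3 to 70.2%) over q21.1 to q42.3. The share at or above the list's median score was 45% (30.7 to 60.2%) in the terminal bands and 43.2% (39.2 to 47.4%) over q21.1 to q42.3, with intervals that overlapped. The band groups were picked after their values were seen.

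**Figure D4:**
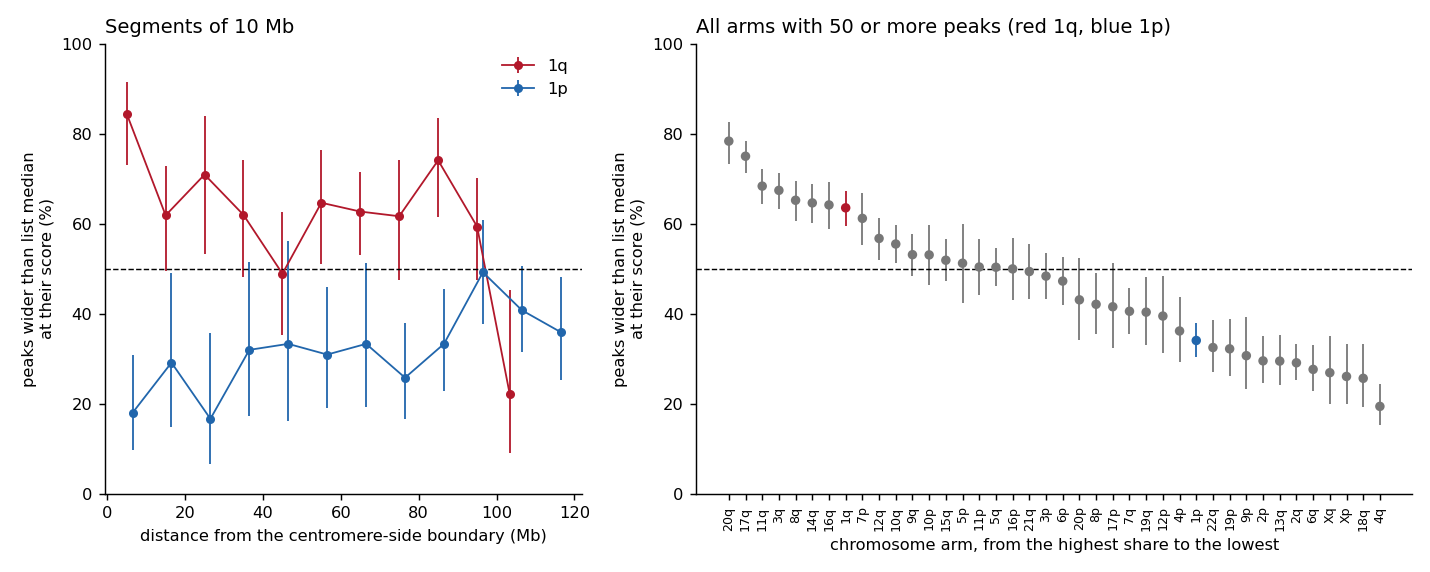
Share of peaks wider than the list's median at their score, in percent with Wilson 95% intervals: left, in 10 Mb segments by distance from the centromere-side boundary of 1q and 1p (the 1p segment of 8 peaks is not drawn); right, in 40 chromosome arms. The 1q segments run from 84.5% next to the centromere to 22.2% at the end, and the arm as a whole (red) is eighth of the 40, while 1p (blue) is twenty-ninth.

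Wide peaks at like score were not particular to 1q. Of the 40 arms, 11 had an interval wholly above 50% and 17 one wholly below it, and 1q was number 8 with 63.6% over its bands from q21.1 on. The arms next to it in this order were 14q with 64.7% (60.3 to 68.8%), 16q with 64.2% (58.8 to 69.3%) and 7p with 61.2% (55.4 to 66.8%), none of them set apart from 1q by its interval. Their shares at or above the list's median score were 51.2% on 14q, 52.1% on 16q and 47.8% on 7p, against 43.3% on 1q.

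The widest members were unlike the rest. The first peak of 1q, chr1:142535398-142542947 in the variable band q12, measured 7550 bp with a score of only 88.66, and just 1 peak of the whole list was wider. The second, chr1:142634585-142636585 in q21.1, measured 2001 bp and scored 61.49. Both lie next to the heterochromatic block, on the far side of which the last 1p peak, chr1:121420670-121421336, measured 667 bp and scored 57.87. The other 3 of the 5 widest were the 2 strong peaks of q42.3 named above and chr1:234859322-234861104, also in q42.3, with 1783 bp and a score of 1807.96. The wide peaks at the proximal edge thus scored below the list's median, and those in q42.3 well above it. At the other end, the last 2 peaks of the arm measured 362 and 273 bp and scored 54.43 and 62.10.

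Peaks of 1q had fewer close neighbours than those of 1p, in spite of their higher density. Another peak centre lay within 10 kb of 37.5% of 1q peaks (223 of 594, Wilson 95% interval 33.7 to 41.5%) and of 45.0% of 1p peaks (259 of 575, 41.0 to 49.1%), a difference of -7.50 points (-13.1 to -1.86). Within 5 kb the shares were 24.6% and 35.5% (difference -10.9 points, -16.1 to -5.65), and within 2 kb 12.3% and 21.0% (-8.75 points, -13.0 to -4.49). On chromosomes 2 to 22 and X the shares were 41.4% within 10 kb, 31.7% within 5 kb and 19.1% within 2 kb, each between those of the arms. The share within 10 kb lay inside the interval of 1q, while those within 5 and 2 kb lay above it. At 50 kb the shares on 1q and 1p were 67.0% and 70.4%, with a difference of -3.43 points whose interval, -8.71 to 1.89, included 0. At 200 kb they were 90.2% and 89.4%. The arms thus differed over short distances, up to 10 kb, and a difference at 50 or 200 kb was not detectable. The median distance to the nearest centre was 19.1 kb (15.2 to 23.1) on 1q and 14.5 kb (11.03 to 19.7) on 1p, with intervals that overlapped. Neighbouring wide peaks that run together would be listed as 1, and the part of peak width in the spacing was not tested.

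**Figure D5:**
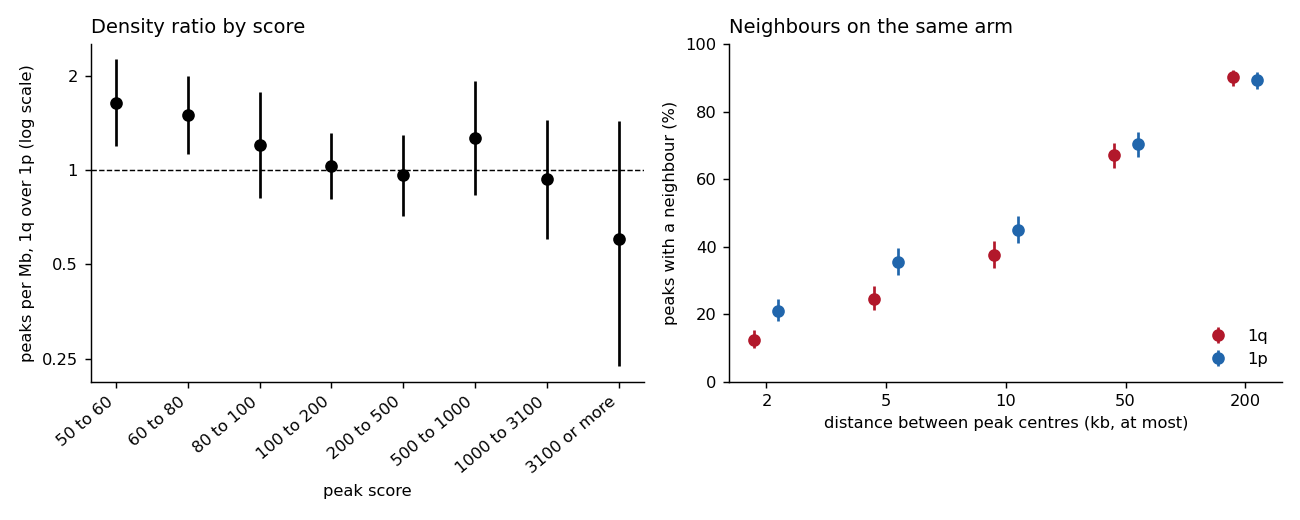
Left, density of peaks on 1q over that on 1p (log scale, with exact 95% intervals) by score: the ratio is 1.63 for scores of 50 to 60, and intervals include 1 from 80 upward. Right, share of peaks with another centre on the same arm within 2 to 200 kb (Wilson 95% intervals): 1q lies below 1p at 2, 5 and 10 kb.

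Clusters on 1q were small. Merging within 10 kb gave 364 single peaks, 74 pairs, 10 triplets, 9 regions of 4, 2 of 5 and 1 of 6. Regions of 3 or more held 13.8% of the 1q peaks (82 of 594, 11.3 to 16.8%) and 22.6% of the 1p peaks (130 of 575, 19.4 to 26.2%), a difference of -8.80 points (-13.2 to -4.39). The largest held 6 peaks on 1q and 9 on 1p. As on 1p, peaks with a neighbour within 10 kb scored higher: 53.8% of these 223 on 1q (47.3 to 60.2%) reached the list's median, against 36.9% (32.17 to 41.9%) of the 371 without one. On 1p these shares were 60.6% and 45.9%.

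The largest cluster, chr1:207062781-207083549 in q32.1, spanned 20.8 kb around the highest-scoring peak of the arm. In order along the chromosome its 6 peaks scored 59.14, 319.16, 337.64, 844.52, 3201.35 and 155.93. Scores climbed towards the fifth peak and dropped after it. The cluster of 5 at chr1:162121958-162138542 in q23.3 also had 1 dominant peak, with scores of 134.76, 203.12, 2491.08, 166.40 and 125.63. The other cluster of 5, chr1:234736765-234753490 in q42.3, held weak peaks only, with scores of 87.52, 50.62, 65.19, 68.00 and 181.92 over 16.7 kb. Band q42.3 holds the gene IRF2BP2, a transcriptional corepressor. The first 2 of the 9 clusters of 4 lie at chr1:175147161-175156754 in q25.1, with a top score of 629.07, and at chr1:181087753-181104552 in q25.3, with a top score of 199.60. The strongest cluster of 4, chr1:203055679-203071460, lay in the densest window, and its peaks scored 636.88 at the lowest and 3100 at the highest.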

How the data were processed

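The deposited peak list has 5 columns and no header. Per the labels it was made from 1 ERα library and 1 input library, and the peak names carry the MACS prefix. The submitters' processing notes name CASAVA 1.8, Bowtie 0.12.9, HOMER and hg19, without saying what each did. Version and threshold of the caller were not given in the sources used here, nor was the handling of duplicate and repeat-mapped reads. The score is the authors' own value per peak, deposited on an unstated scale with a lowest value of 50. The other columns used are base positions as deposited, their starts 0-based and shifted here by 1. The peak score column and the positions describe the ChIP library over the input and were not normalized here.

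Peaks were placed in 1 Mb windows and bands by their centres. Chromosome lengths came from GenomeInfoDb 1.38.1 and hg19 bands from circlize 0.4.16. No peak ended past its hg19 chromosome. Shares have Wilson intervals, differences of shares Newcombe intervals, densities exact Poisson intervals, ratios exact conditional ones and medians order-statistic ones, all at 95%. The limit on the share of strong peaks proximal to the first is instead 3 over the number of peaks. Clustered peaks are not independent, although every interval assumes it. The functions were tested on simulated data. Named regions follow a fixed rule: the 10 densest windows, 10 highest-scoring peaks, 5 widest peaks, 5 largest clusters, 5 longest gaps, 5 densest and 5 sparsest bands, and the first and last peak. Others named, and the comparison of width at like score, were chosen after values were seen. The members and lists were chosen with earlier results of these data known. Scripts ran under Python 3.11.15 (SciPy 1.17.1 for intervals, NumPy 2.4.6 and pandas 2.3.3 for the tables) and R 4.3.3, with figures by matplotlib 3.10.9. The planned count of oestrogen response elements was not run, since no hg19 sequence was used here.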

Additional observations from a re-analysis of the deposited data

How the results depend on the processing

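No paired analysis was possible because there was 1 library of each kind. The density ratio of 1q over 1p, 1.18, was below 1 without peak-free stretches of over 2 Mb (0.966), which shortens 1p alone, and for peaks at or above the median score (0.969). It was 1.02 in Giemsa-negative bands and 1.68 in the lowest score class, both settings chosen after seeing the data, and in the other 4 settings it lay within its interval. The share of windows with 10 or more peaks, 20.8%, was 14.2% with windows shifted by 500 kb. Its interval then included the 13.2% of the genome, which is from unshifted windows over whole chromosomes, centromeric stretches included. At a threshold of 8 the share was 28.3%, against 22.3% on 1p and 18.5% over chromosomes 1 to 22 and X, again at whole length. At a threshold of 15 it was 4.72%, against 4.13% on 1p and 4.98% over those chromosomes, so an excess over the genome was not seen there. With the threshold of 10 it was 7.55% after merging within 10 kb and 2.83% for peaks at or above the median score. The share with a neighbour, 37.5%, was 24.6% within 5 kb, 67.0% within 50 kb, 33.3% after merging within 500 bp and 31.5% at or above the median score. It was below that of 1p in each of these 4 settings (35.5%, 70.4%, 39.2% and 37.7% on 1p). The median width was 639 bp on 1q and 566 bp on 1p at or above the median score, and 539 bp on 1q after merging within 500 bp. The share of peaks wide for their score, 63.6%, was 59.3% for peaks alone within 10 kb and 62.7 to 65.5% in the other 5 settings, all chosen after seeing the data. The share at or above the median score and the ratio of Giemsa-negative to Giemsa-positive bands stayed within their intervals in the settings run, 1 and 2. The cause of these shifts was not tested. Read depth is unknown, and it sets how weak a site could be and still be listed.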

Other observations

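Across the 40 chromosome arms, the share of peaks wide for their score had a Spearman correlation of 0.629 with peak density and of -0.493 with the share at or above the list's median score. The arms share 1 library and its depth, so these are descriptions of this list. Within that pattern 1q stood thirteenth of 40 in density, eighth in wide peaks and last in the share at or above the list's median score, although the median score itself was lower on 10q (104.53) than on 1q (107.78). Its width and score were also less tightly tied than on the other arm of the chromosome: across peaks, width and score had a Spearman correlation of 0.552 on 1q against 0.729 on 1p and 0.632 on chromosomes 2 to 22 and X.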
